A study of Homo sapiens with 12 samples.

Results

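Integrin subunits are described here across RD and Rh30 rhabdomyosarcoma cells with and without knockdown of the histone demethylase KDM3A. The members are the 10 genes whose name in the deposited table was ITGA2, ITGA3, ITGA4, ITGA5, ITGA6, ITGA7, ITGAV, ITGB1, ITGB3 or ITGB5, of 65975 gene identifiers in all. They make up 7 alpha and 3 beta subunits. The rule goes by gene name and holds no expression value, but the names were chosen with earlier results of these data known.

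The study asked how depletion of KDM3A alters gene expression in rhabdomyosarcoma. RD is a fusion-negative (FN-RMS) and Rh30 a fusion-positive (FP-RMS) cell line, so each subtype was represented by 1 line. Cells of both lines were transduced with lentivirus carrying either a scrambled control shRNA (Scramble) or 1 shRNA against KDM3A (KDM3A-sh2), and all 4 groups were selected with puromycin. Polyadenylated RNA was sequenced in 3 libraries per group. RD cells grew in DMEM and Rh30 cells in RPMI with the same supplements, so that line, subtype and medium cannot be told apart. Nothing in the labels or Methods ties the 3 libraries of each group to separate cultures. The titles number the Rh30 Scramble libraries 1 to 3 as in every group, but their descriptions all end in the same number, unlike those of the other groups. Across genes these 3 libraries correlated at 0.9942 to 0.9943 (Pearson, log2 scale), within the range of 0.9937 to 0.9947 over all groups. The p-values therefore measure only the spread between these libraries, which may be technical.

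Integrins are cell surface receptors built from an alpha and a beta subunit. They bind extracellular matrix proteins outside the cell and, through talin, kindlin and the focal adhesion proteins, the actin cytoskeleton inside it. The beta subunit ITGB1 pairs with every alpha member listed here, whereas ITGB3 and ITGB5 pair with ITGAV. ITGA3, ITGA6 and ITGA7 form laminin receptors, ITGA5 the main fibronectin receptor, ITGA2 a collagen receptor and ITGA4 a receptor for fibronectin and VCAM1. ITGAV pairs bind vitronectin and other ligands with an RGD motif. In skeletal muscle, ITGA7 with ITGB1 anchors fibres to laminin.

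Expression was given as FPKM, a read count scaled by exon length and by the mapped reads of the library. KDM3A itself was measured at 35.8, 33.9 and 30.9 FPKM in RD Scramble and at 12.0, 11.2 and 13.4 FPKM in RD KDM3A-sh2. The Rh30 libraries had 27.8, 29.2 and 32.0 FPKM with Scramble and at 13.7, 13.2 and 15.4 FPKM with KDM3A-sh2. In both lines every knockdown library was below every Scramble library, as the labels say, with log2 fold changes (log2FC) of -1.39 (standard error, SE, 0.08, adjusted p = 5e-05) in RD and -1.02 (SE 0.08, adjusted p = 0.000348) in Rh30. Summed FPKM ran from 1198300 to 1379197 over the 12 libraries. FPKM do not hold the number of reads, so the sequencing depth behind each value is unknown.

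Of 5 rhabdomyosarcoma markers, MYOD1, MYOG, DES and CHRNA1 were expressed in every group and MYF6 had a mean of at most 0.234 FPKM. The ranges of their summed level did not overlap in either line, with the larger sums in the knockdown libraries. In RD it was 2055 to 2270 FPKM in Scramble and 2580 to 2703 FPKM in knockdown libraries, and in Rh30 2195 to 2424 and 2598 to 2625 FPKM. The single markers moved in different directions. In RD the means of MYOD1 (133.8 and 112.8 FPKM) and MYOG (184.4 and 167.3 FPKM) were lower with KDM3A-sh2 and those of DES and CHRNA1 higher. In Rh30 CHRNA1 (456.3 and 291.9 FPKM) and DES (403.8 and 370.6 FPKM) were lower and MYOD1 and MYOG higher. Their part in the integrin changes was not tested. Endothelial, leukocyte and platelet markers stayed at group means of at most 3.05 FPKM, except for ITGB2, which had a mean of 27.5 FPKM in Rh30 Scramble and 0.864 FPKM in RD Scramble. Summed leukocyte markers were 1.14 to 2.21 FPKM in RD libraries and 26.5 to 32.1 FPKM in Rh30 libraries, while the defining leukocyte gene PTPRC had a mean of at most 0.0398 FPKM in any group. Summed epithelial markers were 44.6 to 50.7 FPKM in RD, where KRT19 was listed at 0 in every library, and 11.4 to 13.6 FPKM in Rh30. Most of the RD sum was KRT18, with means of 43.7 FPKM in Scramble and 41.7 FPKM in KDM3A-sh2. In Rh30 the KRT18 means were 4.66 and 3.49 FPKM. EPCAM and KRT19 went the other way and were higher in Rh30. The EPCAM means were 0.577 and 0.453 FPKM in RD and 4.6 and 6.03 FPKM in Rh30. PPBP, a platelet gene, was listed at 0 in all 12 libraries.

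All 10 members are protein-coding genes on GRCh38. ITGB1 (ENSG00000150093) lies on chromosome 10 from 32900319 to 33005792, on the minus strand, and its value needs a caution. A processed pseudogene, ITGB1P1 (ENSG00000269378, chromosome 19, 14621634 to 14622242), is 609 bases long and identical over its whole length to bases 1922 to 2530 of an ITGB1 transcript, all of them coding. The first 100 bases of this copy are shown because a read that lies wholly within them matches both genes. The labels and the Methods differ on the read length, and a longer read may run past the edge of the copy, where the genes can be told apart.
ITGB1P1, chr19:14622143-14622242, minus strand: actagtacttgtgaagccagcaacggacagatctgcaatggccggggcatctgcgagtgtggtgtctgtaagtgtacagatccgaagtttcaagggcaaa
The table lists ITGB1P1 with 166.9 to 295.5 FPKM, between 0.758 and 0.909 of the ITGB1 value in the same library. How reads that match both places were assigned is not given in the sources used here, so reads of ITGB1 may be split between the entries and its level is uncertain. ITGB3 (ENSG00000259207, chromosome 17, 47253846 to 47311816, plus strand) shares 2266 exon bases with AC068234.1 on the same strand, which had a mean of 0.028 FPKM.

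**Figure D1:**
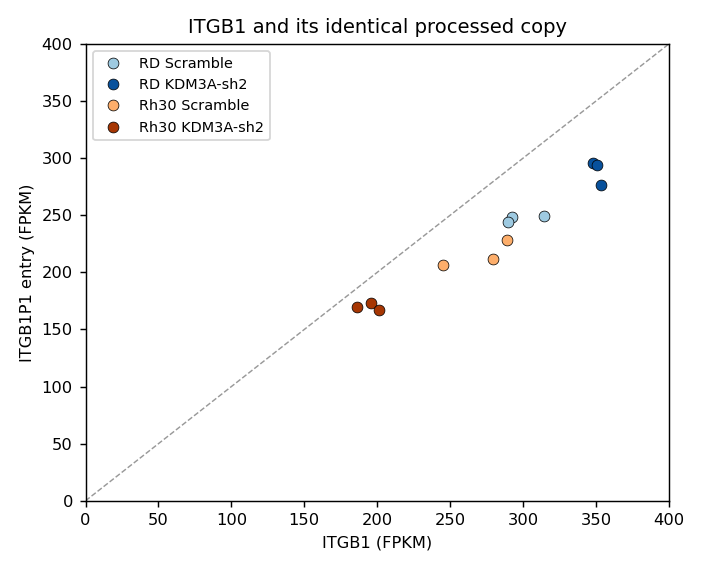
FPKM of the ITGB1 entry (x axis) against FPKM of the ITGB1P1 entry (y axis) in each of the 12 libraries, coloured by group, with a dashed line where both are equal. The ITGB1P1 value sits between 0.758 and 0.909 of the ITGB1 value, with the RD KDM3A-sh2 libraries highest and the Rh30 KDM3A-sh2 libraries lowest on both axes.

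Promoter windows of 300 bases were available for ITGA2, ITGA4, ITGA5, ITGA6, ITGAV, ITGB1 and ITGB5 (RefSeq, GRCh38.p14). ITGA3, ITGA7 and ITGB3, the members that fell in both lines, had no window and are not covered by this search. The windows of the other members are described here. They were searched on both strands for CCGGAA, a form of the motif bound by the ETS family, to which the factor Ets1 studied with KDM3A belongs. Shorter forms such as GGAA were not searched, so a window without CCGGAA may still hold an ETS motif. These 7 members have 12 windows, since some have several starts. CCGGAA is in 3 of the 12 (25.0%), 1 each of ITGB1, ITGA6 and ITGB5, and in 17.2% of 35116 promoter windows in the same table. These 3 windows are shown with the match, which reads TTCCGG on the printed strand, in capitals.
ITGB1 promoter, chr10:32958181-32958480, minus strand: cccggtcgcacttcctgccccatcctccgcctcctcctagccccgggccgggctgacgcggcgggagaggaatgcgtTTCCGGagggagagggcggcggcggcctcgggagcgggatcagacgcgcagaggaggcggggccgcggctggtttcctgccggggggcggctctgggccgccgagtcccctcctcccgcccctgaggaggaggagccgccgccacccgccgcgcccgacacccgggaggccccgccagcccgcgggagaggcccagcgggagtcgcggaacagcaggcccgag
ITGA6 promoter, chr2:172427336-172427635, plus strand: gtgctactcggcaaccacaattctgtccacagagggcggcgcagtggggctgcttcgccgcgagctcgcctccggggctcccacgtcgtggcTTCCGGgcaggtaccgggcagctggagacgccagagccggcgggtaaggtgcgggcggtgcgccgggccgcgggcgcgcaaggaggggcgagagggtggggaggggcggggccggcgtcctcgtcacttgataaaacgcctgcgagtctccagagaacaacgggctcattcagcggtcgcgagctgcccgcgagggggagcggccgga
ITGB5 promoter, chr3:124901369-124901668, minus strand: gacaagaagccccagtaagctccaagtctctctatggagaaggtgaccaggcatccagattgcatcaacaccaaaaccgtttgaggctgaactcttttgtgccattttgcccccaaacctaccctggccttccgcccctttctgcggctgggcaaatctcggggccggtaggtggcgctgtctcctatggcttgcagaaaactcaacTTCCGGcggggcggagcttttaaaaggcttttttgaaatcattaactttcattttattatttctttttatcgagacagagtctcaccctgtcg
Other letters searched were TGANTCA (AP-1), CANNTG (E-box) and GGGCGG (GC box). The AP-1 letters are present only in the ITGA5 window among the members and in 7.71% of all windows. An E-box is in at least 1 window of ITGA5, ITGA6, ITGAV, ITGB1 and ITGB5, and in 68.7% of all windows. A GC box is in at least 1 window of ITGA2, ITGA5, ITGA6, ITGB1 and ITGB5, and in 45.0% of all windows. These shares count single windows, whereas a member with several windows is listed if any of them matches. The lists of members therefore cannot be set directly against the shares. A match describes the sequence only, and binding was not measured in these data.

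In earlier results of these data the 7-base word TGAAGCA was met in the 3′ UTRs of genes that fell with KDM3A-sh2. None of the 10 members holds it in its longest annotated 3′ UTR, while 16.7% of 12609 expressed genes do. The shorter words TGAAGC and GAAGCA, which are parts of it, are present in ITGA2, ITGA3, ITGA5, ITGA6 and ITGB5, and in 50.4% of expressed genes. Among genes of like length the share with a shorter word ran from 22.6% for ITGA7 to 87.7% for ITGA2. The sites are shown with up to 10 bases on either side and the word in capitals, since they let the members with and without a site be compared.
ITGA2, chr5:53092696-53092721, plus strand: ggtgtgtaccTGAAGCtccagctact
ITGA3, chr17:50089210-50089235, plus strand: tgcccaccaaGAAGCActgggtgacc
ITGA3, chr17:50089884-50089909, plus strand: tgcatctctgTGAAGCctctctcctt
ITGA5, chr12:54396008-54396033, minus strand: ccagcctcccTGAAGCctttgcattt
ITGA6, chr2:172506215-172506230, plus strand: attgtatatgTGAAGC
ITGB5, chr3:124762875-124762900, minus strand: cagtggggatTGAAGCggccgtgtac
Members with a site both rose and fell. ITGA3, with 2 separate sites, fell in both lines and had the largest drop of the members in Rh30. ITGA5 rose in RD alone, ITGA6 fell in Rh30 alone, and ITGB5 rose in RD and fell in Rh30. ITGA2 passed the threshold given below in neither line. ITGA4, ITGA7, ITGAV, ITGB1 and ITGB3 hold none of these words. Of these, ITGA7 and ITGB3 fell in both lines and ITGAV in Rh30 alone. ITGB1 rose in RD and fell in Rh30, and ITGA4 passed in neither line. Whether the words had a part in any of these changes was not tested.

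KDM3A-sh2 was compared with Scramble on log2(FPKM + 1), a scale on which changes of low genes are understated, with limma over all genes and a threshold of 0.05 on the adjusted p. Of the 10 members, 9 passed the filter, an average of 1 FPKM or more, and ITGA2 did not. In RD, 3 of the 9 rose (ITGA5, ITGB5 and ITGB1) and 3 fell (ITGA7, ITGA3 and ITGB3), compared with 21.6% of 17995 genes that rose and 19.5% that fell. In Rh30 none of the 9 rose and 7 fell (ITGA3, ITGB3, ITGA6, ITGA7, ITGB1, ITGAV and ITGB5), compared with 15.3% of 17809 genes that rose and 13.2% that fell. At an unadjusted p under 0.05 none rose in Rh30 either, nor when each gene was tested alone on log2 or unlogged values. The groups did not overlap for 6 of the 9 in RD and 7 of the 9 in Rh30, against 53.3% and 45.8% of all genes tested. The median log2FC of the 9 was -0.04 in RD and -0.48 in Rh30, with 0.01 and 0.03 over all genes. The members were named with earlier results of these data known, so their counts here and below describe them only. They do not test integrins as a family. Among the 16 other subunits, 3 of 9 tested rose and 1 fell in RD, and of 7 tested in Rh30 1 fell and none rose. In these bulk libraries, fewer cells that express a gene and less of its RNA per cell cannot be told apart.

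**Figure D2:**
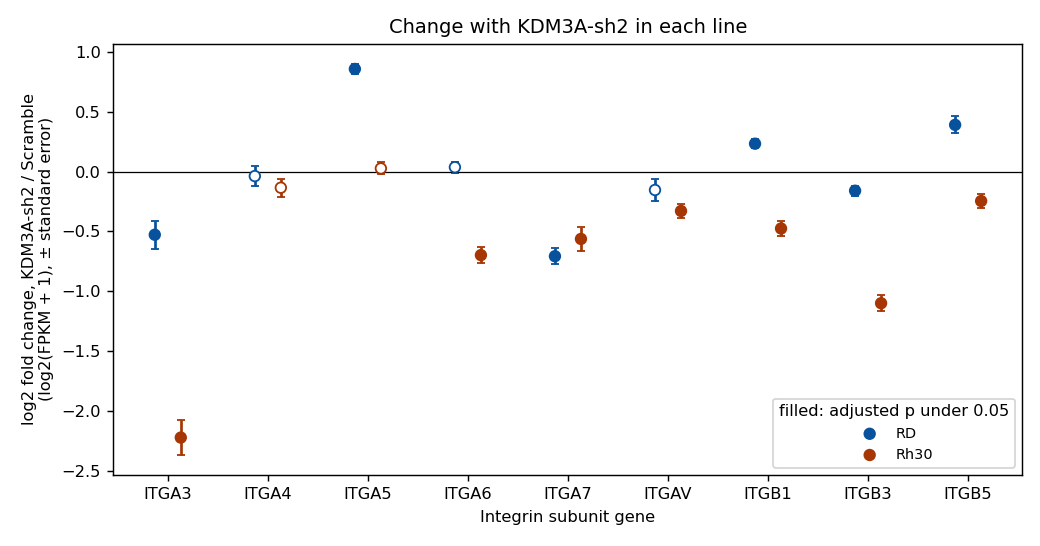
Log2 fold change of KDM3A-sh2 over Scramble on log2(FPKM + 1), with its standard error, for the 9 members tested in RD (blue) and Rh30 (brown), 3 libraries per group. Filled points passed an adjusted p of 0.05, and in RD they lie from -0.71 (ITGA7) to 0.86 (ITGA5) while all filled points in Rh30 are below 0.

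ITGB1, the common beta subunit, had the highest level of the members in all 4 groups. It was measured at 314.2, 292.7 and 289.7 FPKM in RD Scramble and at 348.2, 350.7 and 353.6 FPKM in RD KDM3A-sh2. The Rh30 libraries had 245.4, 279.5 and 288.7 FPKM with Scramble and at 195.7, 186.4 and 201.2 FPKM with KDM3A-sh2. All knockdown libraries were thus above all Scramble libraries in RD and below all of them in Rh30. The log2FC was 0.23 (SE 0.04, adjusted p = 0.00321) in RD and -0.48 (SE 0.07, adjusted p = 0.00314) in Rh30. ITGB1P1 moved the same way, with log2FCs of 0.22 and -0.34. With both entries combined by length, an alternative chosen after seeing the data, the values were 0.23 and -0.46 and both stayed past the threshold.

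ITGB5 (ENSG00000082781, chromosome 3, 124761948 to 124901418, minus strand), the beta subunit of a vitronectin receptor, also rose in RD and fell in Rh30. Its levels were 125.2, 147.5 and 139.8 FPKM in RD Scramble and 169.7, 190.6 and 180.2 FPKM in RD KDM3A-sh2, without overlap. The log2FC in RD was 0.39 (SE 0.07, adjusted p = 0.00457). In Rh30 the levels were 183.9, 195.4 and 175.0 FPKM with Scramble and 146.9, 162.1 and 157.8 FPKM with KDM3A-sh2, again without overlap. The smaller drop in Rh30, -0.25 on the log2 scale (SE 0.06, adjusted p = 0.0186), lost its call without Rh30 Scramble replicate 1 (-0.25, adjusted p = 0.0532) or Rh30 KDM3A-sh2 replicate 1 (-0.21, adjusted p = 0.0588). It also lost it when each gene was tested alone on log2 values (adjusted p = 0.0667) or on unlogged FPKM (adjusted p = 0.0682).

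ITGB3 fell in both lines, and far more in Rh30. This beta subunit, which pairs with ITGAV in most cells and with ITGA2B in platelets, was measured at 35.0, 35.5 and 34.3 FPKM in RD Scramble and at 30.8, 31.0 and 31.7 FPKM in RD KDM3A-sh2. The Rh30 libraries had 10.5, 10.6 and 10.5 FPKM with Scramble and at 4.52, 4.16 and 4.50 FPKM with KDM3A-sh2, which is 2.40-fold lower in mean FPKM. Groups did not overlap in either line. The log2FC in Rh30 was -1.10 (SE 0.07, adjusted p = 0.000188), and -0.73 with a pseudocount of 5. In RD it was -0.16 (SE 0.04, adjusted p = 0.0189). That call was lost without RD Scramble replicate 2 (adjusted p = 0.0661), RD KDM3A-sh2 replicate 1 (0.062) or RD KDM3A-sh2 replicate 2 (0.058), and when all libraries were set to the same summed FPKM (-0.13, adjusted p = 0.0576). Relative to the median of all genes the value was -0.17 before that scaling and -0.16 after it.

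ITGA3 (ENSG00000005884, chromosome 17, 50055968 to 50090481, plus strand), a laminin receptor subunit, showed the largest change of any member. In Rh30 it was measured at 7.53, 11.2 and 9.22 FPKM with Scramble and at 1.11, 1.12 and 1.37 FPKM with KDM3A-sh2. Every knockdown library lay far below every Scramble library, and mean FPKM was 7.78-fold lower. The log2FC was -2.22 (SE 0.15, adjusted p = 0.000217), and it ran from -2.85 with a pseudocount of 0.1 to -1.20 with a pseudocount of 5. In RD, where ITGA3 was higher, it was measured at 52.1, 53.5 and 51.3 FPKM with Scramble and at 29.8, 36.8 and 42.4 FPKM with KDM3A-sh2. The groups did not overlap, but the knockdown libraries spread more widely than the Scramble ones. The log2FC of -0.53 (SE 0.12, adjusted p = 0.0107) no longer passed when each gene was tested alone on log2 values (adjusted p = 0.0608).

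ITGA6 (ENSG00000091409, chromosome 2, 172427354 to 172506282, plus strand) and ITGA7 (ENSG00000135424, chromosome 12, 55684568 to 55716043, minus strand) form the other laminin receptors. ITGA6 was measured at 34.6, 32.0 and 36.6 FPKM in Rh30 Scramble and at 19.4, 21.5 and 21.6 FPKM in Rh30 KDM3A-sh2, without overlap. Its log2FC in Rh30 was -0.70 (SE 0.07, adjusted p = 0.000849). In RD its levels of 106.3 to 117.1 FPKM with Scramble and 111.2 to 117.0 FPKM with KDM3A-sh2 overlapped (log2FC 0.04, SE 0.05, adjusted p = 0.567). ITGA7, the muscle laminin receptor, fell in both lines. It was measured at 64.3, 69.1 and 72.5 FPKM in RD Scramble and at 39.2, 40.8 and 45.1 FPKM in RD KDM3A-sh2. The Rh30 libraries had 40.4, 39.7 and 46.5 FPKM with Scramble and at 24.9, 31.3 and 28.7 FPKM with KDM3A-sh2. Groups did not overlap in either line. The log2FCs were -0.71 (SE 0.07, adjusted p = 0.000322) in RD and -0.56 (SE 0.10, adjusted p = 0.00698) in Rh30.

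ITGA5 (ENSG00000161638, chromosome 12, 54395261 to 54419460, minus strand), the fibronectin receptor subunit, had the largest rise. It was measured at 89.1, 96.5 and 95.5 FPKM in RD Scramble and at 168.4, 166.0 and 176.7 FPKM in RD KDM3A-sh2. The groups were far apart, with a mean 1.82-fold higher and a log2FC of 0.86 (SE 0.05, adjusted p = 3.15e-05). In Rh30 the levels of 66.8 to 73.2 FPKM with Scramble and 68.2 to 73.8 FPKM with KDM3A-sh2 overlapped (log2FC 0.03, SE 0.05, adjusted p = 0.728). ITGA4 (ENSG00000115232, chromosome 2, 181457202 to 181536187, plus strand), which binds fibronectin and VCAM1, did not pass in either line. Its log2FC was -0.04 (SE 0.08, adjusted p = 0.746) in RD, between 183.7 to 221.3 FPKM with Scramble and 185.2 to 216.7 FPKM with KDM3A-sh2. In Rh30 it was -0.13 (SE 0.08, adjusted p = 0.224), between 16.2 to 19.1 and 15.4 to 17 FPKM.

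ITGAV (ENSG00000138448, chromosome 2, 186590065 to 186680901, plus strand), the partner of ITGB3 and ITGB5, was measured at 170.9, 149.7 and 174.3 FPKM in Rh30 Scramble and at 126.9, 132.8 and 133.0 FPKM in Rh30 KDM3A-sh2. All knockdown libraries were below all Scramble libraries, with a log2FC of -0.33 (SE 0.06, adjusted p = 0.00992) that missed the threshold on unlogged FPKM (adjusted p = 0.0568). In RD its levels of 75.0 to 96.8 FPKM and 73.9 to 82.6 FPKM overlapped. The log2FC of -0.15 (SE 0.09, adjusted p = 0.236) passed without RD Scramble replicate 3 (-0.25, adjusted p = 0.033).

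ITGA2 (ENSG00000164171, chromosome 5, 52989326 to 53094779, plus strand), the collagen receptor subunit, was near the limit of the table. It was listed at 0.783, 0.636 and 0.589 FPKM in RD Scramble and at 0.9, 0.934 and 0.832 FPKM in RD KDM3A-sh2, which did not overlap. In Rh30 it was listed at 0.0576, 0.106 and 0.128 FPKM with Scramble and at 0.103, 0.131 and 0.158 FPKM with KDM3A-sh2, which did. With no filter on low values neither line passed the threshold (log2FC 0.18, adjusted p = 0.193 in RD and 0.04, adjusted p = 0.548 in Rh30).

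**Figure D3:**
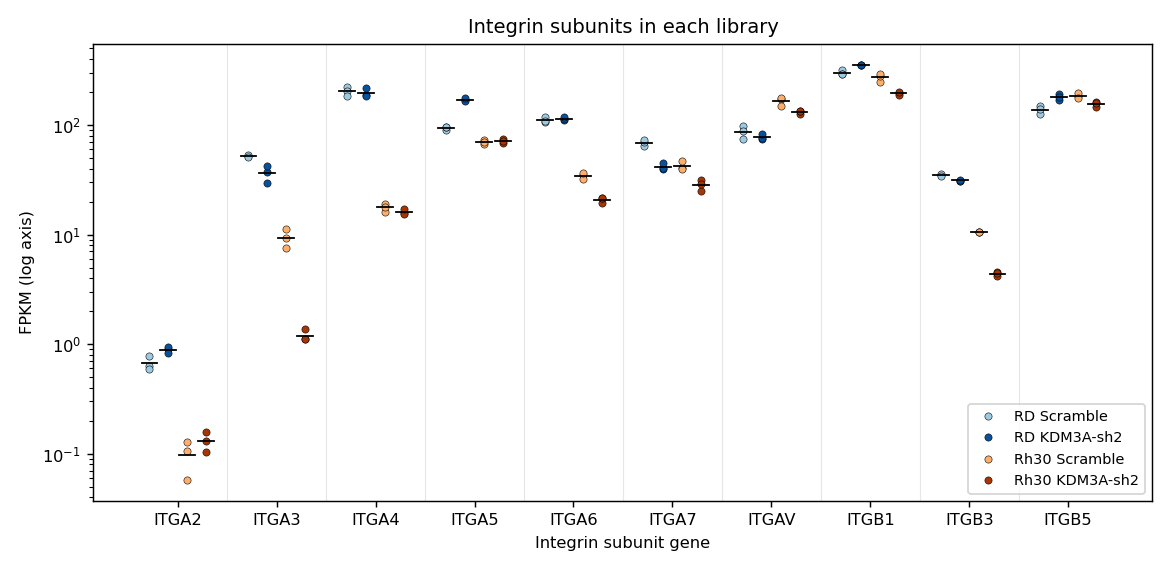
FPKM of the 10 members (log axis) in each of the 12 libraries, coloured by group, with a black line at the mean of 3 libraries. ITGB1 is highest in all 4 groups, ITGA2 is below 1 FPKM in all of them, and ITGA3 in Rh30 drops from a mean of 9.32 to 1.20 FPKM with KDM3A-sh2.

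Whether the response differed between the lines was tested with the interaction of line and shRNA over all 12 libraries, coded so that a negative value means a lower log2FC in Rh30 than in RD. It was negative and past the threshold for 6 of the 9 members tested and positive and past it for none, compared with 13.4% and 14.4% of 18525 genes. At an unadjusted p under 0.05 none was positive either. The difference was -1.69 (SE 0.19, adjusted p = 0.000112) for ITGA3, -0.94 (0.06, 2.61e-06) for ITGB3 and -0.83 (0.07, 9.97e-06) for ITGA5. It was -0.73 (0.08, 0.000106) for ITGA6, -0.71 (0.08, 0.000106) for ITGB1 and -0.64 (0.10, 0.00068) for ITGB5. For ITGB1 and ITGB5 the changes in the lines had opposite signs, whereas ITGA3 and ITGB3 fell in both and more on the log scale in Rh30. The ITGA3 difference does not hold on unlogged FPKM, where RD lost more (7.83 FPKM, adjusted p = 0.17), and it was -0.72 with a pseudocount of 5, which also gave -0.58 for ITGB3. ITGA7 (0.14, SE 0.13, adjusted p = 0.443), ITGA4 (-0.10, 0.12, 0.592) and ITGAV (-0.17, 0.12, 0.328) did not pass, although ITGA7 did on unlogged FPKM (13.02 FPKM, adjusted p = 0.0448). Set to the same summed FPKM, the libraries gave 2062 positive and 3017 negative differences over all genes, compared with 2668 and 2489, and ITGA3, ITGB3, ITGA5, ITGA6, ITGB1 and ITGB5 passed in the same direction.

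Levels also differed between the lines without knockdown. This comparison uses the Scramble libraries that the others use as controls. Of the 9 members tested, 6 were lower and 2 higher in Rh30 than in RD, against 39.6% and 35.0% of 18361 genes, and the groups did not overlap for any of the 9, against 77.5%. ITGA4 differed most, with means of 202.5 FPKM in RD and 17.7 FPKM in Rh30, 11.4-fold lower (log2 difference -3.44, SE 0.09, adjusted p = 8.94e-08). The laminin receptor subunits were all lower in Rh30, by log2 differences of -2.38 for ITGA3, -1.66 for ITGA6 and -0.69 for ITGA7. ITGB3 (-1.64) and ITGA5 (-0.42) were lower as well. ITGAV (0.93, adjusted p = 0.000134) and ITGB5 (0.43, adjusted p = 0.00113), which form a vitronectin receptor together, were higher in Rh30. ITGB1 did not pass (-0.14, SE 0.07, adjusted p = 0.094), although its ranges did not overlap. Without Rh30 Scramble replicate 3 it was -0.19 (adjusted p = 0.0482). Set to the same summed FPKM it was -0.25 (adjusted p = 0.0131), but that scaling moved the median of all genes from -0.04 to -0.14, and relative to the median ITGB1 was at -0.10 before and -0.11 after. ITGA2 was lower in Rh30 with no filter (-0.60, adjusted p = 0.000468).

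The order of the levels therefore differed between the lines. In RD Scramble ITGB1 was followed by ITGA4, ITGB5, ITGA6, ITGA5, ITGAV, ITGA7, ITGA3, ITGB3 and ITGA2, and of these neighbours only ITGA5 and ITGAV overlapped. In RD KDM3A-sh2 ITGA5 moved above ITGA6, and the ranges of ITGA4 and ITGB5 overlapped, as did those of ITGB5 and ITGA5, of ITGA7 and ITGA3, and of ITGA3 and ITGB3. In Rh30 Scramble the order was ITGB1, ITGB5, ITGAV, ITGA5, ITGA7, ITGA6, ITGA4, ITGB3, ITGA3 and ITGA2, with an overlap of ITGB3 and ITGA3 only. Rh30 KDM3A-sh2 had the same order with no overlap between neighbours.

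As a share of the summed FPKM of the 7 alpha members, ITGA4 took 32.9% ± 1.63 (SD, n = 3) in RD Scramble and 5.23% ± 0.355 in Rh30 Scramble. ITGAV took 14.1% ± 1.19 and 48.7% ± 2.00. The leading alpha subunit RNA was thus ITGA4 in RD and ITGAV in Rh30. In RD, ITGA5 took 15.3% ± 1.22 with Scramble and 26.8% ± 0.786 with KDM3A-sh2, and the summed alpha level was 615.4 ± 26.7 and 637.5 ± 38.1 FPKM, with overlapping ranges. In Rh30 the summed alpha level was 338.5 ± 15.9 FPKM in Scramble and 268.5 ± 10.7 FPKM in knockdown libraries, and ITGA5 took 20.7% ± 1.75 and 26.5% ± 0.308 of it. ITGB1 held 54.9% to 63.4% of the beta sum on average in the 4 groups, and ITGB3 at most 7.41%. The ratio of summed alpha to summed beta FPKM was 1.31 ± 0.0427 in RD Scramble and 0.727 ± 0.0565 in Rh30 Scramble. The beta shares and the ratio carry the uncertainty of the ITGB1 level given above. The sums leave out other expressed subunits, such as ITGAE, with means of 72.5 FPKM in RD Scramble and 48.2 FPKM in Rh30 Scramble. ITGB2 and ITGB4, also left out, had means of 27.5 and 18.2 FPKM in Rh30 Scramble. These shares were not tested, and they describe RNA and not pairs at the cell surface.

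**Figure D4:**
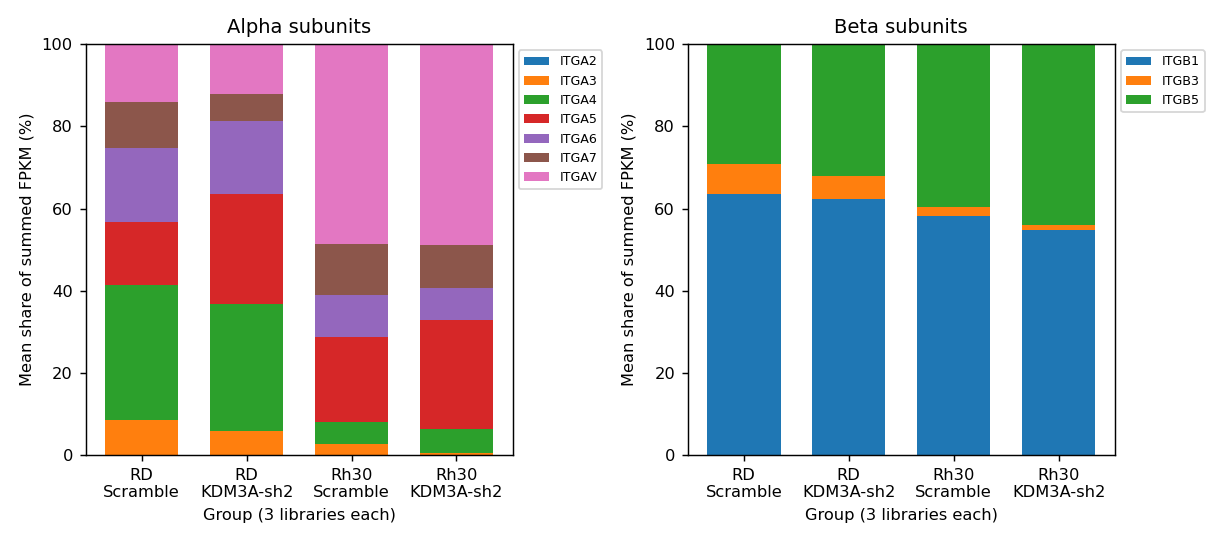
Mean share (%) of each member in the summed FPKM of the 7 alpha members (left) and the 3 beta members (right) in the 4 groups of 3 libraries, stacked to 100%. ITGA4 is the largest alpha share in RD (32.9% with Scramble) and ITGAV in Rh30 (48.7% with Scramble), while ITGB1 is the largest beta share in all groups.

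For each member, the other genes with the highest correlation of log2(FPKM + 1) over the 12 libraries were sought among genes that averaged 10 FPKM or more. The libraries form 4 groups, so these values mostly reflect group means and are given as a description. ITGA3 was most like C8orf58 (Pearson r = 0.997) and CCND1 (0.994), the cyclin of the G1 phase. ITGA5 was most like CD99 (0.996) and the matrix gene SPARC (0.995). ITGA6 was most like FAM101B and the matricellular gene CTGF (both 0.999), and ITGB3 was most like MAFF and DCHS1 (both 0.999). ITGA4 followed TRIL and PCDH15 (both 0.999), ITGA7 followed MTF2 (0.983) and NUP88 (0.976), and ITGAV followed IPO8P1 (0.987) and SMCHD1 (0.986). ITGB1 followed MAMDC2 (0.981) and VEGFA (0.979), and ITGA2, below 1 FPKM throughout, followed ELL2 (0.996) and PPP1R3C (0.993). ITGB5 had the lowest values, 0.915 for MSN and 0.898 for PXDC1.

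The integrin family has 16 other subunit genes. In RD 9 of them were tested, of which 3 rose and 1 fell, with a median log2FC of 0.08. ITGB8 rose from 20.4 ± 1.74 to 30.0 ± 1.93 FPKM (log2FC 0.53, adjusted p = 0.00177) and the collagen receptor subunit ITGA1 from 25.6 ± 2.58 to 34.7 ± 2.71 FPKM (0.42, adjusted p = 0.00876). ITGA9, close in sequence to ITGA4, fell from 18.1 ± 2.86 to 12.2 ± 0.781 FPKM (-0.52, adjusted p = 0.0101). The third to rise, ITGA10, named after its value was seen, went from 1.79 to 5.59 FPKM (1.24, adjusted p = 0.000126). In Rh30 7 were tested and ITGB6, another partner of ITGAV, was the only one past the threshold, falling from 15.6 ± 1.60 to 6.80 ± 0.904 FPKM (-1.09, adjusted p = 0.000886), with a median log2FC of 0.125 over the 7. The interaction passed for 5 of 10 tested, 4 with a negative and 1 with a positive difference, compared with 13.4% and 14.4% of 18525 genes. It was negative for ITGB8 (-0.64, adjusted p = 0.00067), ITGA1 (-0.59, adjusted p = 0.0067), ITGA10 (-1.20, adjusted p = 8.74e-05) and ITGB6 (-0.74, adjusted p = 0.0445), and positive for ITGA9 (0.63, adjusted p = 0.0132). ITGA10 was at most 0.565 FPKM and ITGA9 at most 0.329 FPKM in every Rh30 library, and neither was tested in Rh30 alone. On log2(FPKM + 1) such low values can hardly move, so the differences of ITGA10 and ITGA9 mostly repeat their changes in RD.

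Of 32 genes of the adhesion complex that links integrins to actin, 30 were tested in RD, of which 13 rose and 3 fell, and 28 in Rh30, of which 3 rose and 10 fell. The median log2FC was 0.14 in RD and -0.13 in Rh30. PTK2, which encodes focal adhesion kinase, fell in both lines, from 158.9 ± 12.4 to 49.9 ± 1.41 FPKM in RD (log2FC -1.65, adjusted p = 1.24e-05) and from 111.9 ± 9.64 to 47.2 ± 7.67 FPKM in Rh30 (-1.24, adjusted p = 0.000759). VCL (vinculin) fell as well, by -0.25 (adjusted p = 0.000794) and -0.56 (adjusted p = 0.000879). The largest rises in RD were ZYX (zyxin), from 201.9 ± 5.60 to 287.3 ± 7.09 FPKM (0.51, adjusted p = 9.03e-05), and LIMS1, a partner of integrin-linked kinase (0.47, adjusted p = 0.000633). In Rh30 they were FHL2 (0.34, adjusted p = 0.00208) and TGFB1I1 (0.23, adjusted p = 0.0171). The interaction passed for 16 of 30 genes with a negative and 1 with a positive difference, beside 13.4% and 14.4% of all genes. Over all genes that balance shifted to 3017 negative and 2062 positive calls with equal summed FPKM, as given above.

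Of 30 matrix and cell surface ligands, 27 were tested in RD, of which 11 rose and 8 fell, and 24 in Rh30, of which 3 rose and 14 fell. The median log2FC was 0.07 in RD and -0.31 in Rh30. In RD the collagen gene COL1A1 rose from 124.8 ± 5.04 to 303.3 ± 11.2 FPKM (log2FC 1.27, adjusted p = 1.24e-05) and TNC (tenascin C) from 306.9 ± 8.49 to 638.1 ± 26.1 FPKM (1.05, adjusted p = 1.24e-05). COL6A3 (-1.24, adjusted p = 1.24e-05) and the basement membrane gene NID1 (-0.75, adjusted p = 5.18e-05) fell. In Rh30 the matricellular genes CYR61, from 118.3 ± 1.58 to 34.1 ± 1.19 FPKM (-1.76, adjusted p = 1.39e-05), and CTGF, from 22.4 ± 0.818 to 7.78 ± 0.222 FPKM (-1.42, adjusted p = 5.42e-05), fell most. LTBP1, which stores latent TGF-beta in the matrix (0.87, adjusted p = 0.000258), and the laminin chain LAMA2 (0.66, adjusted p = 0.00178) rose.

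All 10 tetraspanins and other membrane partners were tested in both lines. In RD 6 rose and 2 fell, and in Rh30 1 rose and 1 fell, with median log2FC of 0.15 and 0.05. The tetraspanins CD9, from 37.5 ± 2.32 to 61.6 ± 3.70 FPKM (log2FC 0.70, adjusted p = 0.000258), and CD151, from 163.9 ± 8.40 to 238.6 ± 9.4 FPKM (0.54, adjusted p = 0.000252), rose most in RD. PLAUR, the urokinase receptor (-0.27, adjusted p = 0.00747), and CD82 (-0.19, adjusted p = 0.0177) fell. In Rh30 CAV1 (caveolin) rose (0.37, adjusted p = 0.0134) and CD82 fell (-0.22, adjusted p = 0.0272). All of these counts are to be read beside the 21.6% and 19.5% of genes that rose and fell in RD and the 15.3% and 13.2% in Rh30, and beside the medians over all genes of 0.01 and 0.03.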

How the data were processed

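The 12 libraries were grouped by the line and shRNA in the labels. The authors aligned reads to GRCh38 with GSNAP, used SAMtools, and computed FPKM with Cufflinks, and they deposited 1 table of unlogged FPKM with 66095 entries. Annotation release, strand setting and treatment of reads with several matches are not given in the sources used here. The value 999999999, present in 17 genes, was read as missing, and where an identifier had several entries (117 did) the most expressed one was used. Since FPKM are not counts, log2(FPKM + 1) was fitted with limma 3.58.1 (trend) in R 4.3.3 for genes averaging 1 FPKM or more over the fitted libraries, with two-sided Benjamini-Hochberg adjusted p-values over all genes. An exact permutation test of 3 against 3 cannot go below 0.1. The fits were checked on simulated data. Alternatives changed the pseudocount, filter, scaling, model, duplicates and replicate block, or left out single libraries. Positions, 3′ UTRs and copies come from GENCODE 29 and BLAST 2.17.0, promoters from RefSeq. All 10 members were named. From each list, the 2 largest rises and 2 largest drops past the threshold and averaging 10 FPKM or more were named per line, and for each member the 2 most correlated genes. Members and lists were chosen with earlier results of these data known. Protein sequences were not used here.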

Additional observations from a re-analysis of the deposited data

Results flagged for a closer look

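The response to KDM3A-sh2 differed between Rh30 and RD by the interaction test for 6 members, and in each the value in Rh30 was the lower one. The log2 difference, Rh30 minus RD, was -1.69 for ITGA3, -0.83 for ITGA5, -0.73 for ITGA6, -0.71 for ITGB1, -0.94 for ITGB3 and -0.64 for ITGB5. ITGB1 and ITGB5 rose in RD and fell in Rh30, ITGA5 rose in RD alone, ITGA6 fell in Rh30 alone, and ITGA3 and ITGB3 fell in both. KDM3A itself had a log2 fold change of -1.39 in RD and -1.02 in Rh30. By the same interaction test this difference was 0.37 (SE 0.12, adjusted p = 0.0388), so KDM3A fell less in Rh30 on the log scale. The part of KDM3A in the differences of the members was not tested. Single libraries were not screened for outliers, since each group holds 3.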

How the results depend on the processing

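Of 36 results of single members in the 4 comparisons, 25 kept their direction and their side of the threshold under every alternative run. Of 724 alternative values, 11 lost a call and 4 gained one with the sign kept, and 6 changed sign. Among those 6, the ITGA3 difference between lines on unlogged FPKM also lost its call (adjusted p = 0.17). The sign changes were small values or unlogged ones: ITGA4 in RD without RD Scramble replicate 1 (0.028) or RD KDM3A-sh2 replicate 2 (0.004), with a range of -0.11 to 0.028 over single libraries left out, ITGA5 in Rh30 with median of ratios scaling (-0.002) or without Rh30 Scramble replicate 1 (-0.005), with a range of -0.005 to 0.06, and on unlogged FPKM the difference between lines of ITGA3 (7.83 FPKM) and ITGA4 (3.74 FPKM). On unlogged FPKM 1 member, ITGA7, had a positive difference between lines past the threshold, compared with none on log2(FPKM + 1). With single libraries left out, 3216 to 4073 genes were called in Rh30, compared with 5069, the lowest without Rh30 KDM3A-sh2 replicate 1. Same-numbered libraries of different groups share only a number: their deviations correlated at -0.07 to 0.07. A fit with the replicate number as a replicate block called 6264 genes in RD, compared with 7395, and 3422 in Rh30, compared with 5069. Among the members the replicate block moved only ITGB3 in RD (-0.16, adjusted p = 0.0604) across the threshold. The cause of these changes was not tested. Depth cannot be read from FPKM. Each subtype has 1 line and the knockdown 1 shRNA, so effects of the shRNA other than on KDM3A cannot be told apart from those of the knockdown.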
